A study of Homo sapiens with 9 samples.

Results

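The 9 genes HLA-B, HLA-C, HLA-E, HLA-F, B2M, TAP1, TAP2, TAPBP and NLRC5, which encode MHC class I heavy chains, their light chain, parts of the peptide loading complex and a transcriptional coactivator of class I genes, were followed in MEC1 cells. They were taken by gene symbol from the 59050 symbols of the count table, and were chosen with earlier results of these data known. All 9 were among the 13463 genes that passed the expression filter (CPM, counts relative to the library's total, above 1 in 3 or more samples). MEC1 is an established human B cell line derived from chronic lymphocytic leukemia (CLL). RNA sequencing covered 9 samples in 3 groups of 3: cells in ordinary 2D culture (2D), and cells mixed with a hydrogel, printed as 3D scaffolds and harvested after 7 days (3D_7d) or 14 days (3D_14d). The comparison asks how printing and culture in a matrix change the transcripts of these cells. The labels name no treatment for any group, and all 3 groups are the same cell line, whose sample titles carry the letters MECPGK without an explanation. The scaffolds were extracted with TRIzol, treated with DNase I and purified on a column, whereas the 2D cells went straight to the column kit, so that culture and extraction cannot be told apart in a comparison with 2D. The 2D samples have no stated time point, and the labels do not say whether the replicates were separate cultures, so that p-values measure the spread between these samples, which may be technical.

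MHC class I molecules present peptides from the cell's own proteins to CD8 T cells. Proteasomes cut these proteins, the TAP1-TAP2 transporter carries the peptides into the endoplasmic reticulum, and tapasin (TAPBP) holds an empty heavy chain with beta-2 microglobulin (B2M) next to the transporter until a peptide binds. In B cells the genes are switched on constitutively, and interferons and NF-kB raise them further through short elements just before the start site. NLRC5 is recruited to class I promoters with the RFX factors.

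Libraries held 54662799 to 85968686 counts, so the depth did not limit the values of these genes, and TAP2, the lowest of them, had 555 to 993 counts in a library. All 8 B cell markers listed were expressed, with a summed level of 3256 to 3305 CPM in 2D, 3436 to 4147 in 3D_7d and 4151 to 4522 in 3D_14d. Of 8 T and NK cell markers, 1 passed the expression filter, TRAC, the constant region of the T cell receptor alpha chain, at 332 ± 22.4 CPM in 2D, 472 ± 14.2 in 3D_7d and 649 ± 107 in 3D_14d (mean ± SD, n = 3), while CD3D had at most 2 counts in any library. The 6 myeloid markers summed to at most 1.10 CPM, and the 6 stromal and epithelial ones to 23.5 to 27.0 CPM in 2D, 38.2 to 54.9 in 3D_7d and 54.1 to 80.1 in 3D_14d. The B cell, T and NK cell, and stromal and epithelial sums were thus higher at day 14 than in 2D, as most of the 9 genes were, and their part in the results was not tested. The sums hide opposite changes. Of the tested stromal markers only PECAM1 rose (means 13.8, 42.25 and 64.3 CPM in 2D, 3D_7d and 3D_14d). COL1A1 (6.93, 3.00 and 3.20) and PDGFRB (3.67, 0.458 and 2.11) were lower in the scaffolds. Among the B cell markers, CD22 and BLNK had lower means at day 14 (332 and 591 CPM) than in 2D (541 and 668). The 3D_14d libraries differed from each other more than those of the other groups did (chi-square divided by the number of genes, 154.8 to 305.5 between pairs of libraries against 22.5 to 81.9), and replicate 1 was the farthest. In bulk RNA, fewer cells that transcribe a gene and less RNA per cell cannot be told apart.

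The promoters of HLA-B, HLA-C and B2M, 3 genes called higher at day 14, are shown first with the short elements found before their start sites. HLA-B, HLA-C, HLA-E, HLA-F, TAP1, TAP2 and TAPBP lie on chromosome 6, B2M on chromosome 15 and NLRC5 on chromosome 16. RefSeq promoter entries (GRCh38.p14) were matched for 7 of the 9 genes, which leaves out HLA-E and NLRC5. Positions count from the RefSeq start site, for TAP1 the one farther upstream of 2. Capitals mark 4 motifs on either strand: AANNGAAA, the core of an interferon response element; TGACG, the core of a cyclic AMP response element (CRE); CCAAT, the box bound by NF-Y; and the NF-kB consensus, which also allows either purine or either pyrimidine at some positions. The letters were chosen after the sequences had been seen. The stretches below lie at chr6:31357227-31357360 (minus strand) for HLA-B, chr6:31272140-31272288 (minus strand) for HLA-C and chr15:44711371-44711476 (plus strand) for B2M.
HLA-B: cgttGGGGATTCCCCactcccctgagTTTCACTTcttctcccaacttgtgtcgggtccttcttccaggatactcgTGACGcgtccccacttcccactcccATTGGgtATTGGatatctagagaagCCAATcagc
HLA-C: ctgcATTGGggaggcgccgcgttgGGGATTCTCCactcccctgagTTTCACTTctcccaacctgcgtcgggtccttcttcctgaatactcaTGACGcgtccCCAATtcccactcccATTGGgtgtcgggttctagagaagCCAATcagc
B2M: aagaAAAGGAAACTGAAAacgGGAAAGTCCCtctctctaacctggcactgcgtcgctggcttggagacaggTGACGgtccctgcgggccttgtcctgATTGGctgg

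These 3 promoters held the interferon core, the CRE core and a CCAAT box together, as 1.19% of 35116 RefSeq promoters of the same 250 bases did, a share from which nothing is read because the letters were chosen with these sequences in view. TAP2 and TAPBP, also called higher at day 14, had no match to the CCAAT box, and TAPBP had none to the CRE core. In HLA-B and HLA-C the interferon core reads on the opposite strand, as TTTCACTT, and stands at -155 and -151 from the start site, with the CRE core at -106 and -105. The NF-kB consensus matched in HLA-B at -177 and -176, which overlap, and in HLA-C at -172. In TAP1, TAP2 and TAPBP the interferon core occurred as a pair of matches that overlap each other, as in B2M at -142 and -136, and those of the first 3 genes are shown here with 4 bases on each side, at chr6:32853821-32853842 for TAP1, chr6:32838784-32838805 for TAP2 and chr6:33314079-33314100 for TAPBP, all on the minus strand.
TAP1: ccgcTTTCGATTTCGCTTtccc
TAP2: ggggAAGCGAAAGCGAAAgctg
TAPBP: aggaAAGTGAAAGTGAAAggag

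The interferon core was present in 7 of the 7 promoters, against 20.3% of all promoters. The CRE core was present in 4 (HLA-B, HLA-C, B2M and TAP2), against 21.2%, the CCAAT box in 5 (HLA-B, HLA-C, HLA-F, B2M and TAP1), against 32.0%, and the NF-kB consensus in 5 (HLA-B, HLA-C, B2M, TAP1 and TAPBP), against 9.96%. The map of motif matches shows that TAPBP has its pair of interferon cores closest to the RefSeq start site, at -18 and -12. The matches in HLA-F, TAP1 and TAPBP lie inside the gene spans of the annotation used for counting, so these distances depend on the start site taken. The letters were chosen with these sequences in view, so nothing is read from these counts beside the shares of all promoters. A match is a stretch of letters and no measurement of binding.

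**Figure D1:**
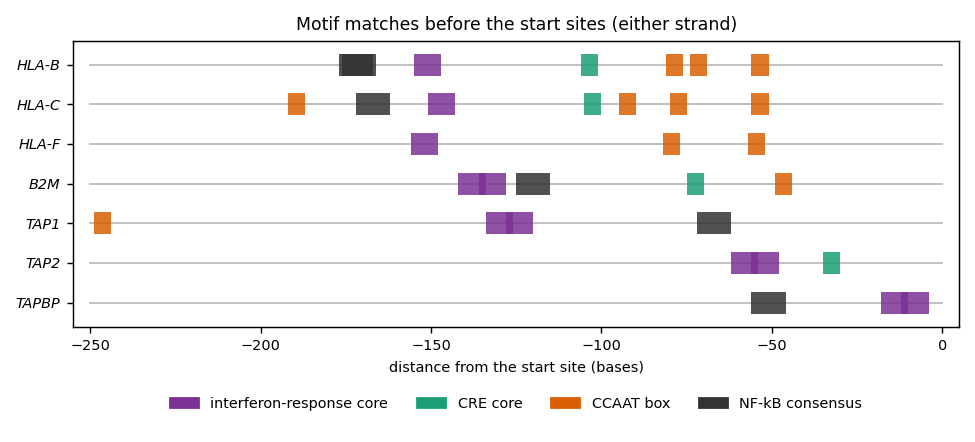
Position of the motif matches in the 250 bases before the start site of 7 genes, in bases from the start site (x axis), with coloured boxes for the interferon-response core, the CRE core, the CCAAT box and the NF-kB consensus on either strand. The interferon core lies at -155 and -151 and the CRE core at -106 and -105 in HLA-B and HLA-C, and TAPBP has its pair of interferon cores at -18 and -12.

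Class I transcripts were among the most abundant of the cell. Levels per length are given as RPKM (CPM divided by the exon length in kilobases; CPM and RPKM values were scaled with TMM). In 2D the order was B2M (5958 ± 453), HLA-B (1710 ± 128), HLA-C (1482 ± 106), HLA-E (775 ± 34.4), TAP1 (148 ± 5.65), HLA-F (114 ± 5.61), TAPBP (94.7 ± 1.93), NLRC5 (16.3 ± 2.13) and TAP2 (1.59 ± 0.126; mean ± SD, n = 3 for each). No neighbours in this order overlapped between libraries. In 3D_7d, HLA-B and HLA-C overlapped, and TAPBP (242 ± 10.8 RPKM) stood above TAP1 (186 ± 22.6 RPKM), the reverse of 2D. In 3D_14d, HLA-B and HLA-C again overlapped, as did TAPBP and TAP1. By RPKM, B2M ranked 3 to 7 of 13463 genes in the 9 libraries, HLA-B 15 to 21, HLA-C 16 to 25 and HLA-E 27 to 60, while TAP2 ranked 8299 to 10161. The 9 genes took 2.42% ± 0.109 of all counts in 2D, 2.03% ± 0.10 in 3D_7d and 3.10% ± 0.214 in 3D_14d. The 3 groups did not overlap in this share (two-sided exact permutation p = 0.1 for each pair, the smallest that 3 against 3 allows).

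At day 7, 2 of the 9 genes rose against 2D (TAPBP and TAP2), 1 fell (HLA-F) and 6 did not pass the test, where 43.4% of all tested genes were called in either direction, 22.2% up and 21.2% down. The median log2 fold change of the 9 genes was 0.03, and that of all tested genes was -0.00. At day 14, 6 rose (HLA-B, HLA-C, HLA-E, B2M, TAP2 and TAPBP) and none fell, where 36.2% of all tested genes were called, 19.0% up and 17.2% down. The median was 0.55, against 0.02 for all tested genes. Between the scaffolds, 5 rose from day 7 to day 14 (HLA-B, HLA-C, HLA-E, HLA-F and B2M) and none fell, where 28.1% of all tested genes were called, 14.5% up and 13.6% down. The median was 0.48, against -0.00. Calls rest on an adjusted p of at most 0.05 by the quasi-likelihood test of edgeR, adjusted over the 13463 genes by the Benjamini-Hochberg procedure. The comparisons share groups: both with 2D share the 2D samples, and the one between scaffolds shares its samples with each of them. Libraries of the groups did not overlap for 5, 6 and 5 of the 9 genes in these comparisons, where 64.6%, 49.7% and 39.3% of all tested genes did not overlap. The count of 6 at day 14 fell to 3 without 2D replicate 2 and to 2 without 2D replicate 3, and the 2 genes called up at day 7 became 1 without 2D replicate 1. Calls up over all tested genes fell too, at day 14 from 2557 of 13463 to 1599 of 13214 and 1564 of 13163. At day 7 they fell from 2985 of 13463 to 2051 of 13236.

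**Figure D2:**
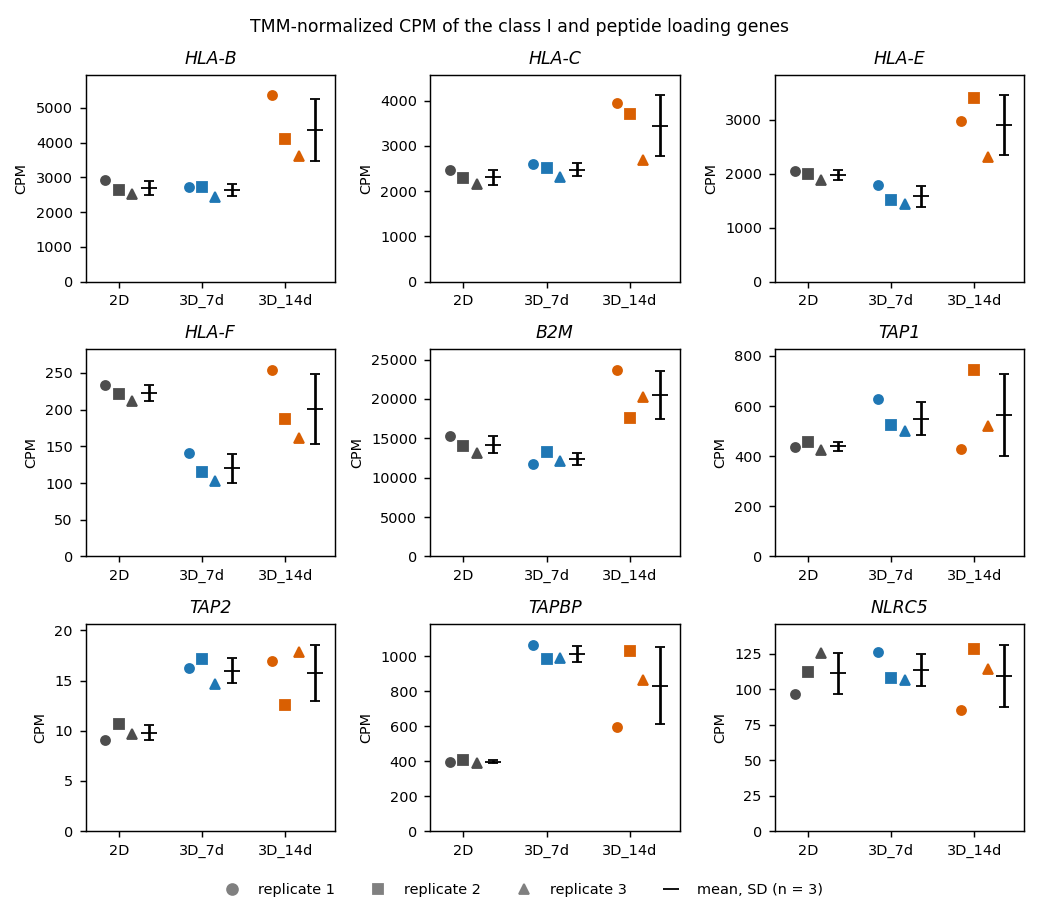
TMM-normalized CPM (y axis, from 0) of the 9 genes in each library of 2D, 3D_7d and 3D_14d, with 1 symbol per replicate and the mean with its SD (n = 3) beside them. HLA-B, HLA-C, HLA-E and B2M lie higher in every 3D_14d library than in any 2D library, and TAPBP lies higher in every 3D library.

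The classical heavy chains HLA-B and HLA-C, which bind peptide for CD8 T cells, were not called at day 7 and were higher at day 14. HLA-B (chr6:31269491-31357179, minus strand, GRCh38, a span that reaches into HLA-C in the annotation) was at 2918, 2635 and 2528 CPM in 2D, 2731, 2718 and 2424 in 3D_7d, and 5358, 4114 and 3606 in 3D_14d. All day 14 libraries lay above all others, and those of 2D and day 7 overlapped. The log2 fold change against 2D was -0.04 (SE 0.16) at day 7, with an adjusted p of 0.866, and 0.69 (SE 0.16) at day 14, with an adjusted p of 0.00473 (edgeR quasi-likelihood, Benjamini-Hochberg). From day 7 to day 14 it was 0.73 (adjusted p = 0.00552 by the same test). Both day 14 calls were kept in all 17 alternative fits. In the annotation, 25.2% of the exonic bases of HLA-B were shared with AL671883.2 and HLA-C, and 23.9% of its 100-base transcript windows occurred in another gene, none of them in another HLA gene. Windows had to be identical in reference transcripts of a later GENCODE release than that used for counting. Whether reads of these cells crossed between HLA genes was not tested.

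HLA-C (chr6:31268749-31272086, minus strand) was at 2477, 2282 and 2151 CPM in 2D, 2592, 2507 and 2318 in 3D_7d, and 3943, 3713 and 2684 in 3D_14d. Day 14 replicate 3 lay nearer to the highest day 7 library than to the other day 14 libraries, but the groups did not overlap. HLA-C rose by 0.58 (log2) against 2D at day 14 (edgeR adjusted p = 0.0121) and by 0.48 from day 7 to day 14 (edgeR adjusted p = 0.0379), with 0.10 at day 7 (edgeR adjusted p = 0.626). The rise against 2D lost its call without 2D replicate 2 (edgeR adjusted p = 0.0639) or replicate 3 (0.0761), and the rise from day 7 was kept in 8 of 17 alternative fits. Only 2.12% of its exonic bases were shared with another gene.

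HLA-E, which presents mainly signal peptides of other class I chains to the NK cell receptor CD94-NKG2A, was called higher at day 14 and was not called at day 7. HLA-E (chr6:30489509-30494194, plus strand) was at 2055, 1987 and 1881 CPM in 2D, 1798, 1507 and 1430 in 3D_7d, and 2983, 3404 and 2305 in 3D_14d. The 3 groups did not overlap, with day 7 lowest and day 14 highest. The log2 fold change was -0.32 at day 7 (edgeR adjusted p = 0.122), 0.55 at day 14 against 2D (edgeR adjusted p = 0.0176) and 0.88 from day 7 to day 14 (edgeR adjusted p = 0.00241). The last was kept in all 17 alternative fits. The call at day 14 against 2D was lost in 6 of them, among these each fit without 1 of the 2D replicates (edgeR adjusted p = 0.0505, 0.0719 and 0.0864) and the fit without 3D_14d replicate 2 (0.0508), while at day 7 the gene was called lower without 3D_14d replicate 3 (log2 fold change -0.32, edgeR adjusted p = 0.0464).

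HLA-F, a nonclassical heavy chain found partly as an open conformer without peptide, was the 1 gene of the 9 that fell. HLA-F (chr6:29722775-29727296, plus strand) was at 234, 222 and 212 CPM in 2D, 142, 115 and 103 in 3D_7d, and 254, 187 and 161 in 3D_14d. All day 7 libraries were below all others, and day 14 spanned the 2D values. It fell by 0.89 (log2, SE 0.18) at day 7 (edgeR adjusted p = 0.00169), rose by 0.74 from day 7 to day 14 (edgeR adjusted p = 0.00965), and at day 14 stood at -0.15 against 2D (edgeR adjusted p = 0.539). Both calls were kept in all 17 alternative fits. In the annotation 39.3% of its exonic bases were shared with AL645939.1, HLA-F-AS1 and RPL23AP1, and without a stated strand setting of the counting, reads of HLA-F and of its antisense partner cannot be told apart.

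B2M, the light chain without which most class I molecules do not reach the surface, had the highest level of the 9 genes. B2M (chr15:44711487-44718877, plus strand) was at 15320, 14010 and 13180 CPM in 2D, 11730, 13280 and 12070 in 3D_7d, and 23670, 17520 and 20260 in 3D_14d. Every day 14 library lay above every other library. It rose by 0.53 (log2, SE 0.14) against 2D at day 14 (edgeR adjusted p = 0.0123) and by 0.73 from day 7 to day 14 (edgeR adjusted p = 0.00362), and its difference at day 7 was -0.20 (edgeR adjusted p = 0.289). The call against 2D was lost without 2D replicate 2 (edgeR adjusted p = 0.0774) or replicate 3 (0.0919). B2M alone took 1.54% ± 0.0811 of all counts in 2D, 1.21% ± 0.0713 in 3D_7d and 1.93% ± 0.259 in 3D_14d (n = 3), and no exonic base of it was shared with another gene.

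**Figure D3:**
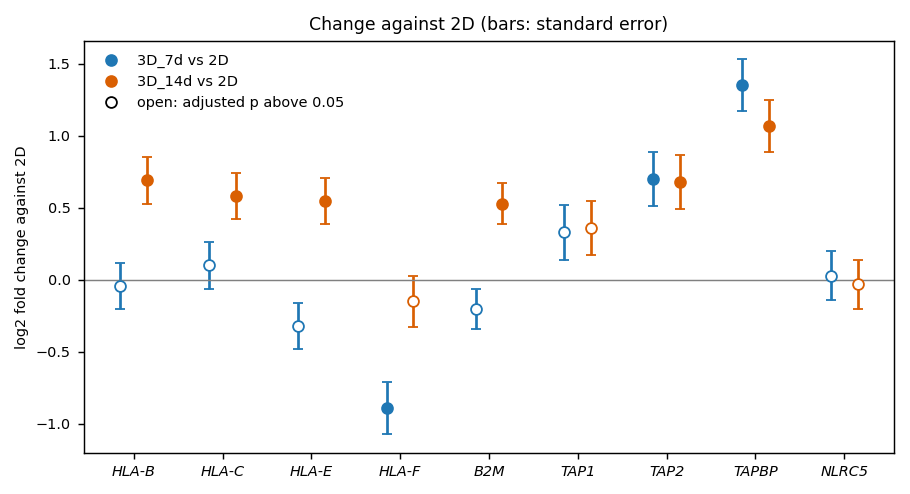
Log2 fold change against 2D (y axis) of the 9 genes at day 7 (blue) and day 14 (orange), with standard errors and open symbols for an adjusted p above 0.05 (edgeR, n = 3 per group). HLA-B, HLA-C, HLA-E and B2M are near or below 0 at day 7 and at 0.53 to 0.69 at day 14, whereas TAPBP is at 1.35 and 1.07.

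The share of each gene in the counts of the 4 heavy chain genes considered here was also compared. HLA-B made up 37.4% ± 0.505 of them in 2D, 38.6% ± 1.05 in 3D_7d and 40.0% ± 3.51 in 3D_14d, and these groups overlapped (exact permutation p = 0.2 at day 7 and 0.4 at day 14 against 2D). HLA-C made up 32.0% ± 0.241 in 2D, 36.4% ± 0.648 in 3D_7d and 31.5% ± 0.940 in 3D_14d. Its day 7 share lay above every other library (exact permutation p = 0.1 against either group, the smallest possible). HLA-E made up 27.5% ± 0.631, 23.2% ± 1.42 and 26.6% ± 3.02, with the day 7 libraries below those of 2D (exact permutation p = 0.1). HLA-F made up 3.10% ± 0.0454 in 2D, 1.76% ± 0.166 in 3D_7d and 1.83% ± 0.195 in 3D_14d. Both scaffold groups lay below all 2D libraries for HLA-F (exact permutation p = 0.1 for each). At day 14 HLA-F thus overlapped the 2D range by CPM but lay below it as a share of the heavy chain counts. Shares of 4 genes were compared in 3 comparisons, and none of these p-values can fall below 0.1, before or after adjustment.

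**Figure D4:**
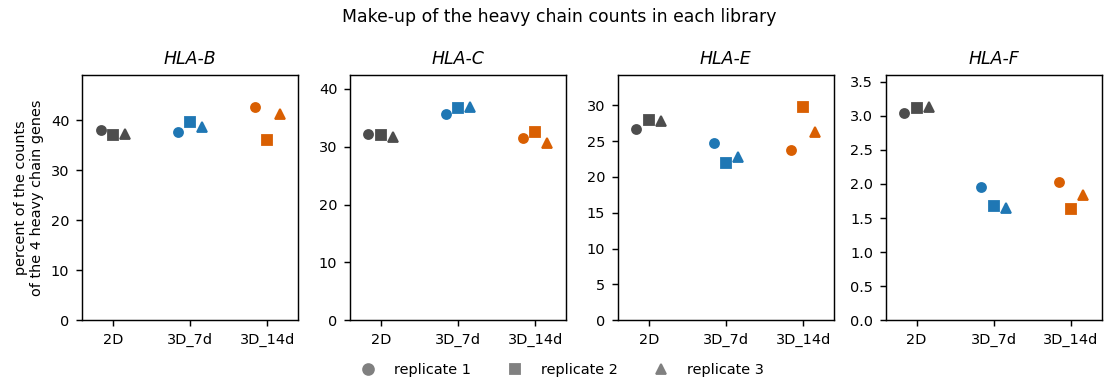
Share of HLA-B, HLA-C, HLA-E and HLA-F in the counts of the 4 heavy chain genes (percent, y axes from 0) in each library, with 1 symbol per replicate. The HLA-C share is highest in the 3 libraries of 3D_7d, and the HLA-F share is near 3.10% in 2D and lower in all 6 scaffold libraries.

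The heavy chains were also set against the light chain with which they pair. The summed RPKM of the 4 heavy chain genes divided by that of B2M was 0.685 ± 0.00653 in 2D, 0.760 ± 0.0757 in 3D_7d and 0.729 ± 0.143 in 3D_14d (n = 3). On the log2 scale the difference from 2D was 0.144 at day 7, with no overlap (exact permutation p = 0.1), and 0.0708 at day 14, with overlap (exact permutation p = 0.7).

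Of the peptide loading genes, TAPBP and TAP2 were called higher at day 7 and TAP1 was not. TAPBP encodes tapasin, the editor that tethers the heavy chain to the transporter. TAPBP (chr6:33299694-33314387, minus strand) was at 396, 406 and 390 CPM in 2D, 1067, 988 and 990 in 3D_7d, and 595, 1032 and 867 in 3D_14d. All scaffold libraries lay above all 2D libraries, and day 14 replicate 1 was the lowest of them. It rose by 1.35 (log2, SE 0.18) at day 7 (edgeR adjusted p = 0.000109) and by 1.07 at day 14 (edgeR adjusted p = 0.000694), the largest change of the 9 genes in either comparison with 2D, and both calls were kept in all 17 alternative fits. From day 7 to day 14 its difference was -0.29 (edgeR adjusted p = 0.238), and without 3D_14d replicate 2 it was called lower (-0.47, edgeR adjusted p = 0.0446). No exonic base of TAPBP was shared.

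TAP1 and TAP2 form the transporter as a heterodimer, but their counts per length differed strongly. TAP1 (chr6:32845209-32853978, minus strand) was at 435, 457 and 424 CPM in 2D, 626, 524 and 500 in 3D_7d, and 428, 744 and 521 in 3D_14d. The day 7 libraries lay above those of 2D, while day 14 overlapped both. Its log2 fold change was 0.33 at day 7 (edgeR adjusted p = 0.175) and 0.36 at day 14 (edgeR adjusted p = 0.147), so that TAP1 did not pass the test. It was called higher at day 7 in the fit with only the 6 samples compared (0.31, edgeR adjusted p = 0.0169) and at day 14 without 3D_14d replicate 1 (0.53, edgeR adjusted p = 0.0152). The exons of TAP1 share 15.4% of their bases with PSMB8-AS1.

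TAP2 (chr6:32821833-32838770, minus strand) was at 9.13, 10.7 and 9.68 CPM in 2D, 16.2, 17.1 and 14.6 in 3D_7d, and 16.9, 12.6 and 17.8 in 3D_14d. All scaffold libraries lay above all 2D libraries. TAP2 rose by 0.70 (log2, SE 0.19) at day 7 (edgeR adjusted p = 0.00873) and by 0.68 at day 14 (edgeR adjusted p = 0.0125), with -0.02 between the scaffolds (edgeR adjusted p = 0.941). The day 7 call was lost without 2D replicate 1 (edgeR adjusted p = 0.0600), and the day 14 call without 2D replicate 1 (0.0689) or replicate 3 (0.0623). Of its exonic bases 33.3% were shared with AL669918.1, and 17.5% of its 100-base windows occurred in another gene.

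Per length, TAP1 counts stood 93.3 ± 5.30 times above those of TAP2 in 2D, 71.8 ± 8.34 times in 3D_7d and 79.0 ± 38.7 times in 3D_14d (ratio of RPKM, n = 3). TAP2 shares 33.3% of its exonic bases with AL669918.1, and TAP1 shares 15.4% with PSMB8-AS1. How reads on shared bases were counted is not given, and their part in this gap was not tested. The log2 ratio was lower at day 7 than in 2D by 0.383 with no overlap (exact permutation p = 0.1), and at day 14 the libraries overlapped those of 2D (difference -0.344, exact permutation p = 0.4).

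NLRC5, the coactivator that is recruited to class I promoters, did not pass the test in any comparison. NLRC5 (chr16:56989498-57083524, plus strand) was at 96.7, 112 and 126 CPM in 2D, 126, 108 and 106 in 3D_7d, and 85.3, 129 and 114 in 3D_14d. The groups overlapped throughout. The log2 fold change was 0.03 (SE 0.17) at day 7 (edgeR adjusted p = 0.912), -0.03 at day 14 (edgeR adjusted p = 0.917) and -0.05 between the scaffolds (edgeR adjusted p = 0.837), and none of the 17 alternative fits called it in any comparison. Within 3D_14d, replicate 1 had the highest B2M, HLA-B, HLA-C and HLA-F and the lowest TAP1, TAPBP and NLRC5.

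Outside the 9 genes, 69 of 80 listed pathway genes passed the expression filter. Of these 22 rose and 10 fell at day 7, 24 rose and 8 fell at day 14, and 9 rose and 8 fell from day 7 to day 14. The shares up were 31.9%, 34.8% and 13.0% of the 69, beside 22.2%, 19.0% and 14.5% of all tested genes, and the shares down were 14.5%, 11.6% and 11.6%, beside 21.2%, 17.2% and 13.6%. The median log2 fold change of the 69 was 0.16, 0.24 and 0.04. The lists were written for this pathway with earlier results of the same data known.

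The immunoproteasome, whose inducible subunits cut peptides suited to class I, had 1 of 6 genes up at day 7, 3 at day 14 and 2 from day 7 to day 14, with none down. These are 16.7%, 50% and 33.3% of the list, beside 22.2%, 19.0% and 14.5% of all tested genes. PSMB8, a catalytic subunit, was at 442, 416 and 401 CPM in 2D, 492, 470 and 448 in 3D_7d, and 807, 578 and 548 in 3D_14d. It rose by 0.62 (log2) at day 14 against 2D (edgeR adjusted p = 0.00896) and by 0.45 from day 7 (edgeR adjusted p = 0.0474), the former kept in 14 and the latter in 7 of 17 alternative fits, with 0.28 for the latter without 3D_14d replicate 1. PSMB9, the catalytic subunit transcribed divergently from TAP1, was at 399, 350 and 323 CPM in 2D, 380, 277 and 262 in 3D_7d, and 786, 488 and 509 in 3D_14d. It rose by 0.74 at day 14 against 2D (edgeR adjusted p = 0.0138) and by 0.96 from day 7 (edgeR adjusted p = 0.00521). The first of these was 0.49 without 3D_14d replicate 1 and was kept in 15 of 17 alternative fits. The neighbours thus differed in 3D_14d replicate 1, where PSMB9 was at its highest and TAP1 at its lowest day 14 level. PSME2, a subunit of the PA28 activator, rose by 0.85 at day 7 (edgeR adjusted p = 0.00687) and by 0.74 at day 14 (edgeR adjusted p = 0.0177). At day 14 it was at 777, 392 and 439 CPM, and the day 14 value was 0.38 without replicate 1, the highest of these, with a call kept in 13 of 17 alternative fits. Its partner PSME1 was at -0.18 and 0.14, the third catalytic subunit PSMB10 at 0.01 and 0.24, and the assembly factor POMP at -0.10 and 0.46, none of which passed the test.

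The list of constitutive catalytic subunits that the inducible ones replace also held the activators PSME3 and PSME4. It had 4 of 5 genes up at day 7 and at day 14 (80.0% at each time, beside 22.2% and 19.0% of all tested genes) and none down against 2D. PSMB7 rose by 0.70 at day 7 (edgeR adjusted p = 0.0153) and by 0.77 at day 14 (edgeR adjusted p = 0.0119), calls kept in 12 and 16 of 17 alternative fits, with 0.48 at day 14 without 3D_14d replicate 1. PSME3, which encodes the nuclear activator PA28 gamma, rose by 1.82 at day 7 (edgeR adjusted p = 8.06e-06) and by 0.79 at day 14 (edgeR adjusted p = 0.00194), and fell by 1.02 between them (edgeR adjusted p = 0.000824).

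Chaperones and trimming enzymes that act with the loading complex had 3 of 8 genes up at day 7 and 2 at day 14 (37.5% and 25.0%, beside 22.2% and 19.0% of all tested genes), with 2 down from day 7 to day 14 (25.0%, beside 13.6%). CALR, calreticulin, which binds the heavy chain's glycan in the loading complex, was at 198, 202 and 197 CPM in 2D, 370, 469 and 435 in 3D_7d, and 324, 308 and 262 in 3D_14d. It rose by 1.10 at day 7 (edgeR adjusted p = 9.13e-05) and by 0.59 at day 14 (edgeR adjusted p = 0.00625), and fell by 0.51 between the scaffolds (edgeR adjusted p = 0.0174), the last call kept in 13 of 17 alternative fits. PDIA3, the disulfide isomerase bound to tapasin, rose by 0.61 at day 7 (edgeR adjusted p = 0.00339), and TAPBPL, a second peptide editor, by 0.54 at day 14 (edgeR adjusted p = 0.0175), a call kept in 11 of 17 alternative fits and lost without any 1 of the 2D replicates or 3D_14d replicate 2. CANX, calnexin, which folds newly made heavy chains, fell by 0.66 from day 7 to day 14 (edgeR adjusted p = 0.0395), a call kept in 10 of 17 alternative fits. In 3D_14d it was at 254, 491 and 509 CPM, and the value was -0.38 without the first of these, replicate 1. The call was lost without any 1 of the 2D replicates or without 3D_7d replicate 2 or 3. The 5 cytosolic peptidases had 2 genes up at day 7 (40.0%, beside 22.2% of all tested genes), and 1 up and 2 down at day 14 (20% and 40.0%, beside 19.0% and 17.2%). Among them, NPEPPS rose by 1.09 and 0.76 at the 2 time points (edgeR adjusted p = 0.000249 and 0.00333) and NRDC by 0.59 at day 7 (0.0104, kept in 13 of 17 alternative fits), whereas BLMH fell by 0.54 (0.0115) and TPP2 by 0.84 (0.0178) at day 14, TPP2 at -0.54 without 3D_14d replicate 1.

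**Figure D5:**
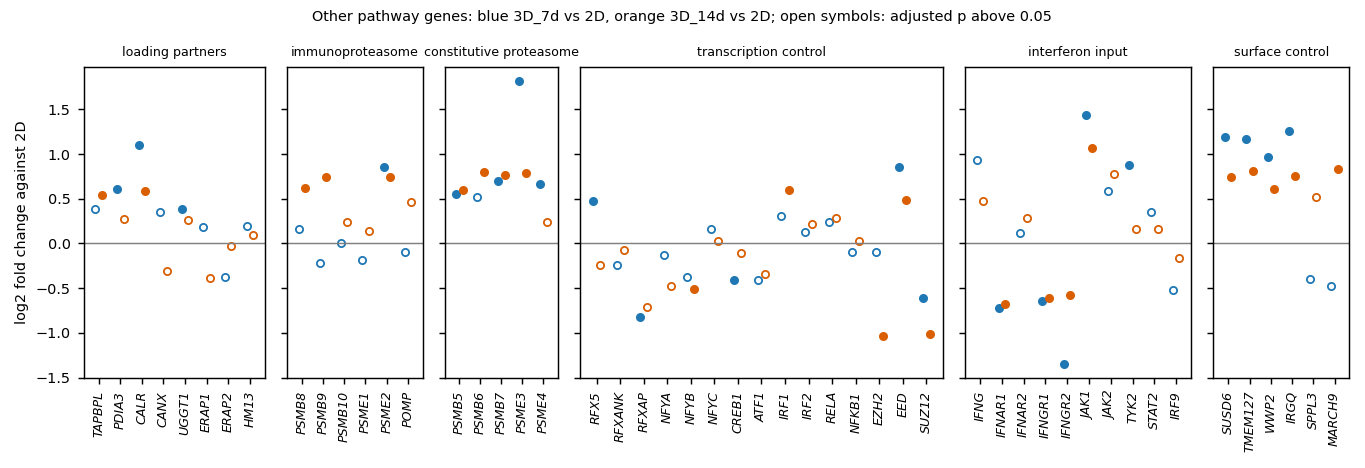
Log2 fold change against 2D (y axis) of genes of 6 pathway lists at day 7 (blue) and day 14 (orange), with open symbols for an adjusted p above 0.05 (edgeR, n = 3 per group). PSME3 has the largest value at day 7 (1.82), JAK1 is up at both times, and IFNAR1, IFNGR1 and IFNGR2 are down at both.

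Of 16 genes for factors that act on class I promoters or silence them, 3 rose and 3 fell at each time point against 2D. Each count is 18.8% of the list, beside 22.2% up and 21.2% down at day 7 and 19.0% and 17.2% at day 14 among all tested genes, shares near the background. IRF1, which binds the interferon core, rose by 0.60 at day 14 (edgeR adjusted p = 0.00508), with 0.31 at day 7 (edgeR adjusted p = 0.0840). RFX5, the DNA-binding partner of NLRC5, rose by 0.47 at day 7 (edgeR adjusted p = 0.0266), a call kept in 9 of 17 alternative fits, and fell by 0.71 from day 7 to day 14 (edgeR adjusted p = 0.00601), to -0.24 against 2D. Its partner RFXAP fell by 0.82 at day 7 (edgeR adjusted p = 0.0256), a call kept in 13 of 17 alternative fits. EZH2, the methyltransferase of Polycomb repressive complex 2, was at 60.3, 71.2 and 76.9 CPM in 2D, 76.0, 57.0 and 62.7 in 3D_7d, and 31.6, 35.7 and 34.9 in 3D_14d. EZH2 fell by 1.03 at day 14 (edgeR adjusted p = 0.000385) and was not called at day 7 (-0.09, edgeR adjusted p = 0.663). Its partner SUZ12 fell by 0.61 and 1.01 (edgeR adjusted p = 0.0115 and 0.000792), while EED, the third core subunit, rose by 0.86 and 0.49 (0.000606 and 0.0198), the day 14 call kept in 12 of 17 alternative fits and lost without any 1 of the 2D replicates.

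Of 10 tested genes for interferon signalling, receptors and their kinases among them, 2 rose and 3 fell at day 7 (20% and 30.0%, beside 22.2% and 21.2% of all tested genes), and 1 rose and 3 fell at day 14 (10% and 30.0%, beside 19.0% and 17.2%). IFNGR2, a chain of the interferon gamma receptor, was at 226, 224 and 180 CPM in 2D, 70.6, 77.4 and 99.3 in 3D_7d, and 134, 163 and 123 in 3D_14d. It fell by 1.35 at day 7 (edgeR adjusted p = 8.59e-05) and by 0.58 at day 14 (edgeR adjusted p = 0.0176), the latter kept in 14 of 17 alternative fits. IFNGR1 fell by 0.64 and 0.61 (edgeR adjusted p = 0.00249 and 0.00411), and IFNAR1, a chain of the type I receptor, by 0.72 and 0.68 (0.00231 and 0.00415). JAK1, the kinase on both receptors, rose by 1.44 and 1.07 (edgeR adjusted p = 6.02e-05 and 0.00057), and TYK2 by 0.88 at day 7 (0.00220).

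The list of nonclassical and class I-like genes also held class I pseudogenes, of which HLA-H, HLA-K and HLA-L were tested. It had 2 of 11 tested genes up and 3 down at day 7 (18.2% and 27.3%, beside 22.2% and 21.2% of all tested genes), and 4 up and none down at day 14 (36.4% up, beside 19.0%). MR1, which presents vitamin B metabolites, rose by 0.81 and 0.83 (edgeR adjusted p = 0.000465 and 0.000537), and MICA, a ligand of the receptor NKG2D, by 0.98 and 0.95 (0.00495 and 0.00731). HLA-G, a nonclassical heavy chain, was at 16.0, 15.3 and 14.8 CPM in 2D, 16.6, 17.1 and 15.7 in 3D_7d, and 29.6, 27.3 and 23.7 in 3D_14d, and rose by 0.80 at day 14 (edgeR adjusted p = 0.00181). Its level was 9.66 ± 0.393 RPKM in 2D, and 28.6% of its exonic bases were shared with HCG4P8. FCGRT, the heavy chain of the neonatal Fc receptor, which also pairs with B2M, was at 18.3, 16.8 and 17.2 CPM in 2D, 5.35, 3.95 and 4.76 in 3D_7d, and 29.1, 31.5 and 20.1 in 3D_14d. It fell by 1.89 at day 7 (edgeR adjusted p = 3.01e-05), rose by 2.52 from day 7 to day 14 (edgeR adjusted p = 3.17e-05) and at day 14 was above 2D by 0.63 (edgeR adjusted p = 0.0261), the last call kept in 11 of 17 alternative fits and lost without any 1 of the 2D replicates or 3D_14d replicate 2. ULBP1, another ligand of NKG2D, had 197 to 225 counts in the 2D libraries, 19, 0 and 27 in those of 3D_7d and 1, 112 and 101 in those of 3D_14d, and fell at day 7 (log2 fold change -3.33, edgeR adjusted p = 0.0257), a call kept in 13 of 17 alternative fits.

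Genes known to act on class I molecules at the surface had 4 of 6 up at day 7 (66.7%, beside 22.2% of all tested genes), 5 up at day 14 (83.3%, beside 19.0%) and none down against 2D. TMEM127 and SUSD6, which together mark class I molecules for degradation, rose by 1.17 and 1.19 at day 7 (edgeR adjusted p = 0.000317 and 0.000376) and by 0.81 and 0.74 at day 14 (0.00404 and 0.00831). MARCH9, a membrane ubiquitin ligase that acts on class I, was at 13.8, 9.94 and 11.0 CPM in 2D, 7.77, 8.47 and 8.59 in 3D_7d, and 28.4, 18.8 and 14.6 in 3D_14d, and rose by 1.32 from day 7 to day 14 (edgeR adjusted p = 0.00232). SPPL3, which is counted in this list, is a protease that cleaves glycosyltransferases and so acts against the masking of class I by glycolipids. It rose by 0.91 between the scaffolds (edgeR adjusted p = 0.00697). Of the 4 receptors of class I listed, 2 were tested: LILRB1, an inhibitory receptor of B cells, fell by 0.76 at day 7 (edgeR adjusted p = 0.00426), and KLRD1, the CD94 chain of the HLA-E receptor, rose by 2.04 and 3.07 (edgeR adjusted p = 0.00114 and 0.000131), with 22 to 81 counts in the 2D libraries and 215 to 326 in those of 3D_14d.

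Outside all lists, the 5 tested genes whose log2 CPM followed the mean centred profile of the 9 genes most closely over the 9 samples were SHISA5, B3GALT4, FCRLA, ITM2B and CBLN2, with Pearson's r between 0.977 and 0.986. The points share their libraries and depth, and r is given as a description. FCRLA, an intracellular Fc receptor-like protein of B cells, had a mean of 401 CPM in 2D, 479 in 3D_7d and 746 in 3D_14d. SHISA5 had 449, 484 and 785 CPM, and ITM2B, a membrane protein of the secretory pathway, had 35.1, 48.0 and 125 CPM. B3GALT4, a galactosyltransferase, had 29.1, 33.5 and 63.7 CPM, and CBLN2 was near the expression filter with 0.874, 1.05 and 2.29 CPM. All 5 had their highest mean at day 14, as did HLA-B, HLA-C, HLA-E and B2M. The mean profile by which the 5 were picked was itself highest at day 14, so nothing is read from this.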

How the data were processed

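RNA of 9 MEC1 samples was sequenced by the authors as single reads of 100 nt from SMART-Seq v4 libraries made with 2 ng of RNA. Per the labels, reads were trimmed with Trimmomatic (version 0.39), aligned to GRCh38 with STAR (version 2.5.3a) and assigned to GENCODE release 31 genes with featureCounts (version 1.6.4). The values used are the raw counts per gene as deposited by the authors. How strand, multi-mapping reads and overlapping genes were handled is not given in the sources used here, and near-identical HLA sequences can lose reads in such steps. Samples were grouped by culture and time.

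Genes were kept if 3 or more samples exceeded 1 CPM (13463 of 51726 with a count). In R (version 4.3.3), edgeR (version 4.0.16) gave TMM factors, CPM and RPKM, and 1 quasi-likelihood model with a mean for each group was tested in 3 comparisons with Benjamini-Hochberg adjustment over all tested genes, and an adjusted p of 0.05 as threshold. The methods of the study use DESeq2. DESeq2 (version 1.42.0) was an alternative here, beside its size factors, total counts alone, TMM without immunoglobulin, ribosomal protein and mitochondrial genes, no filter, filterByExpr, 6 samples only, a replicate block, a minimum absolute log2 fold change of 1, and 9 fits that each left out 1 sample. Shares and ratios were compared with two-sided exact permutation tests. The pipeline was tested on simulated counts.

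Genes named were the 9 members, 6 immunoproteasome genes, RFX5 and IRF1, in each other list the 2 called genes with the smallest p per comparison and direction, and the 5 genes most like the members' mean profile. A further gene of this rule is not reported here. Members and lists were chosen with earlier results of these data known. The main model did not pair samples by replicate number, and the labels do not say whether the numbers pair them. The correlation of deviations between same-numbered samples was -0.10 to 0.185. Between 2D and 3D_14d it was 0.0931 to 0.185, above that of samples with different numbers (-0.135 to 0.0399). Between 3D_7d and the other groups it was -0.10 to -0.00522, against -0.053 to 0.0807 for different numbers.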

Additional observations from a re-analysis of the deposited data

Results flagged for a closer look

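The change against 2D differed between day 7 and day 14 for 5 of the 9 genes, by the edgeR test of 3D_14d against 3D_7d, which is the difference of the 2 changes. The day 14 change minus the day 7 change was 0.73 on the log2 scale for HLA-B, 0.48 for HLA-C, 0.88 for HLA-E, 0.74 for HLA-F and 0.73 for B2M, and TAP1, TAP2, TAPBP and NLRC5 did not pass this test. Among the other named genes the difference was positive for FCGRT (2.52), MARCH9 (1.32), PSMB9 (0.96), SPPL3 (0.91), IFNGR2 (0.76), HLA-G (0.70) and PSMB8 (0.45). It was negative for PSME3 (-1.02), EZH2 (-0.94), TYK2 (-0.72), RFX5 (-0.71), CANX (-0.66), BLMH (-0.55), CALR (-0.51) and NRDC (-0.50).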

How the results depend on the processing

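Extraction differed between 2D and scaffolds, and annotated overlaps touch HLA-B, HLA-F, TAP1 and TAP2. Scaling by total counts alone moved the log2 fold change of the median gene to -0.16 at day 7 and -0.18 at day 14, with 2157 genes up and 3575 down at day 7 (main values 2985 and 2853) and 1604 up and 3246 down at day 14 (2557 and 2318). Under it, 3 of the 9 genes were called down at day 7 (HLA-F, HLA-E and B2M), HLA-E and TAP2 lost their day 14 calls (edgeR adjusted p = 0.0736 for both), and the sign turned for HLA-C (-0.05), NLRC5 (-0.13) and PSMB10 (-0.14) at day 7, for PSME1 (-0.07) at day 14 and for TAP1 (-0.01) between the scaffolds, none of them called. Without a filter on low counts, which tests more genes, 2 of the 9 genes were called up at day 14 (HLA-C, HLA-E, B2M and TAP2 were lost, edgeR adjusted p = 0.0823 to 0.262) and 3 between the scaffolds (HLA-C and B2M were lost, 0.296 and 0.0533), and TAP1 was at -0.01 there. Of the 51726 genes in that fit, 2107 were called up at day 14 and 1733 between the scaffolds. TMM without the 3 gene classes turned NLRC5 at day 7 (-0.02), PSMB10 at day 7 (-0.03) and TAP2 between the scaffolds (0.00). PSMB10 at day 7 was -0.00 with DESeq2's size factors, -0.00 with its Wald test and -0.01 with 6 samples. With 6 samples only, 3 of the 9 genes were called up at day 7 (TAP1 gained a call, 0.31, edgeR adjusted p = 0.0169) and 2 down, and 16 pathway genes down at day 7 and 4 between the scaffolds. Of all 13463 genes, 3856 were then called up and 3944 down at day 7, and 1124 down between the scaffolds. A minimum absolute log2 fold change of 1 left 1 of the 9 up and 0 down at day 7, 1 up at day 14 and 0 between the scaffolds, and of pathway genes 9 up and 4 down at day 7, 2 up and 2 down at day 14, and 2 up and 1 down between the scaffolds. Of all genes, 1114 up and 1641 down remained at day 7, 981 and 1191 at day 14, and 984 and 472 between scaffolds.

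The replicate block left the calls on the 9 genes at 2 up and 1 down, 6 up, and 5 up, and gave 21, 24 and 9 pathway genes up and 8, 10 and 10 down. All tested genes then gave 2939, 2458 and 1818 up and 2821, 2361 and 1865 down. With 1 sample left out, the 9 genes had 1 to 2 up and 1 to 2 down at day 7, 2 to 7 up and 0 down at day 14, and 4 to 5 up and 0 to 1 down between the scaffolds, and the pathway genes 16 to 27 up and 6 to 15 down, 13 to 26 up and 6 to 9 down, and 6 to 10 up and 4 to 15 down. All tested genes, 13163 to 13407 in these fits, had 2051 to 3603 up and 2227 to 3569 down at day 7. At day 14 they had 1564 to 2845 up and 1640 to 2463 down, and between the scaffolds 1193 to 2187 and 1092 to 2141. Pathway genes down between the scaffolds were 15 without 3D_14d replicate 2, and 4 and 5 without 3D_7d replicate 2 and 3, and those up at day 14 were 13 without 2D replicate 2 or 3. The HLA-B share differed by 0.685 to 1.73 percentage points at day 7, 1.18 to 4.53 at day 14 and -0.034 to 3.32 between the scaffolds, the log2 ratio of heavy chains to B2M by 0.0634 to 0.187, -0.0683 to 0.217 and -0.213 to 0.0732, and that of TAP1 to TAP2 by -0.468 to -0.300, -0.718 to -0.104 and -0.335 to 0.280. The uncalled differences of NLRC5 ranged from -0.11 to 0.07, -0.16 to 0.13 and -0.18 to 0.11, those of PSMB10 from -0.11 to 0.05 at day 7 and -0.03 to 0.44 at day 14, and those of TAP1 and TAP2 between the scaffolds from -0.21 to 0.22 and -0.11 to 0.12. The causes were not tested.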
